A study of Medicago truncatula with 24 samples.

Results

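The shoot and the distant root of cra2 plants were compared in the small RNA libraries of Medicago truncatula, the barrel medic, a model legume. All 6 cra2 shoot libraries were set against all 6 cra2 root libraries, with the local nitrogen regime as a covariate, so that 12 of the 24 libraries of the series entered the comparison. Each library gave a raw count for the same 427 small RNA sequences, and 329 of them had at least 1 count in cra2. The cra2 line carries a mutation in COMPACT ROOT ARCHITECTURE 2, and A17 is the control line. Plants were 4 weeks old and grown hydroponically in a split-root system, with the local root compartment on 10 mM NH4NO3 under satiety, or on 0.05 mM KNO3 under deficit, over the last 4 days and the other compartment without mineral nitrogen. Each of the 4 cra2 groups, shoot or root under deficit or satiety, had 3 libraries, as had the 4 groups of A17. According to the series design the roots sampled were the distant ones, which under both regimes had been without mineral nitrogen. The labels name no cra2 allele and do not say whether plants were pooled or whether libraries of a group came from separate cultures, so p-values measure only the spread between these libraries, which may be technical. No messenger RNA was measured, so neither the loss of CRA2 nor the organ labels could be checked with markers.

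CRA2 is a leucine-rich repeat receptor-like kinase that binds CEP peptides, which are made in nitrogen-starved roots and carried to the shoot. In legumes it is known to act in the shoot to promote nodulation and to restrain lateral root formation in the root, and shoot production of the mobile miRNA miR2111 depends on it. Plant miRNAs are cut by a Dicer-like enzyme from hairpin precursors as a duplex of a mature strand and an opposite arm. The mature strand guides an Argonaute protein to messenger RNAs, and pairing at the seed, bases 2 to 8, is part of that recognition.

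Family names were given from well-known mature sequences, because the deposited tables hold sequences without names. Altogether 108 of the 427 sequences were placed in 30 families, and they held 97.6% of the cra2 counts. The mature sequences and opposite arms on which the results turn are shown 5′ to 3′, as DNA letters, with the seed in capitals.

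Sequences of the miR171 family, which differed most in direction between organs, were these:
miR171 form 1: tGATTGAGccgtgccaatatt
miR171 form 2: tGATTGAGccgtgccaatatc
miR171 form 3: tGATTGAGtcgtgccaatatc
miR171h: cGAGCCGAatcaatatcactc
miR171 opposite arm: cGATGTTGgtgaggttcaatc
Forms 1, 2 and 3 share a seed. Counted from 1 at the 5′ end and with form 3 as the reference, form 2 carries T9C and form 1 carries T9C and C21T. The seed of miR171h is another one.

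Sequences of the families that regulate phase change, shown because close relatives behaved differently, were these:
miR156: tGACAGAAgagagtgagcac
miR157 form 1: tTGACAGAagatagagggcac
miR157 form 2: tTGACAGAagatagagagcac
miR172 form 1: aGAATCTTgatgatgctgcat
miR172 form 2: aGAATCCTgatgatgctgcag
The miR157 forms differ by G17A alone and share a seed. Form 2 of miR172 carries T7C and T21G relative to form 1, so its seed differs.

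Sequences of other families with a member that stood apart were these:
miR159: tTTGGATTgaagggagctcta
miR159 variant: aTTGGAGTgaagggagctcca
miR164: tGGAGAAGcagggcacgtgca
miR164 variant: tGGAGAAGcagggcacatgct
miR160 form 1: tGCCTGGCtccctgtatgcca
miR160 form 2: tGCCTGGCtccctgaatgcca
miR390: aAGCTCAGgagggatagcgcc
miR396 form 1: tTCCACAGctttcttgaactt
miR396 form 2: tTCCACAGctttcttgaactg
miR399: tGCCAAAGgagatttgccctg
miR398 opposite arm: gGAGTGACactgagaacacaag
Both miR164 sequences share a seed and differ by G17A and A21T. The miR160 forms differ by T15A and the miR396 forms by T21G, each pair with 1 seed. The miR159 variant carries T1A, T7G and T20C.

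Library totals were 1494211 to 3652745 counts in cra2 shoots and 768323 to 1163545 in cra2 roots, so depth differed with organ in every comparison below. Totals in A17 were 3011803 to 3919811 in shoots and 1358742 to 1661422 in roots. Roots of cra2 were thus also shallower than roots of A17. One mature sequence, miR159, took 67.1% to 84.4% of each cra2 library. Because of this, levels are given as CPM, counts brought to a common library total and scaled by the trimmed mean of M-values (TMM), in which the level of miR159 can exceed the nominal total. Among the shoots, the third deficit library lay far above the others for 5 families, and the second deficit library was the shallowest and had the lowest miR159 share. Without the third deficit shoot 95 of the 101 sequences called with all 12 libraries were still called, and without the second 94.

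Most small RNAs that could be tested differed between the organs of cra2. Of 178 sequences that passed the filter on low counts, 101 were called at an adjusted p under 0.05 (edgeR's quasi-likelihood test, Benjamini-Hochberg adjustment over all 178), which is 56.7% of those tested. Higher levels in shoot were called for 48 sequences (27%) and higher levels in root for 53 (29.8%). The 6 shoot and the 6 root libraries did not overlap for 72 of the 178 (40.4%). The median log2 ratio of shoot to root over all 178 was -0.07. Scaling by library totals moved that median to -0.62 and the calls to 35 higher and 76 lower in shoot, so small differences can change sign with the scaling, but no called sequence was then called in the other direction. Among the 101, the sign was the same under deficit and under satiety for 101, and 70 were called in both regimes. Called under deficit were 85 sequences (47.8%) and under satiety 84 (47.2%).

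Summed by family, 27 families could be tested and 19 were called (70.4%), 11 of them higher in shoot (40.7%) and 8 higher in root (29.6%). Under all 4 scalings tried, 10 families were called. Within families, members often went apart: of 19 families with at least 2 tested sequences, 8 held called sequences in both directions.

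**Figure D1:**
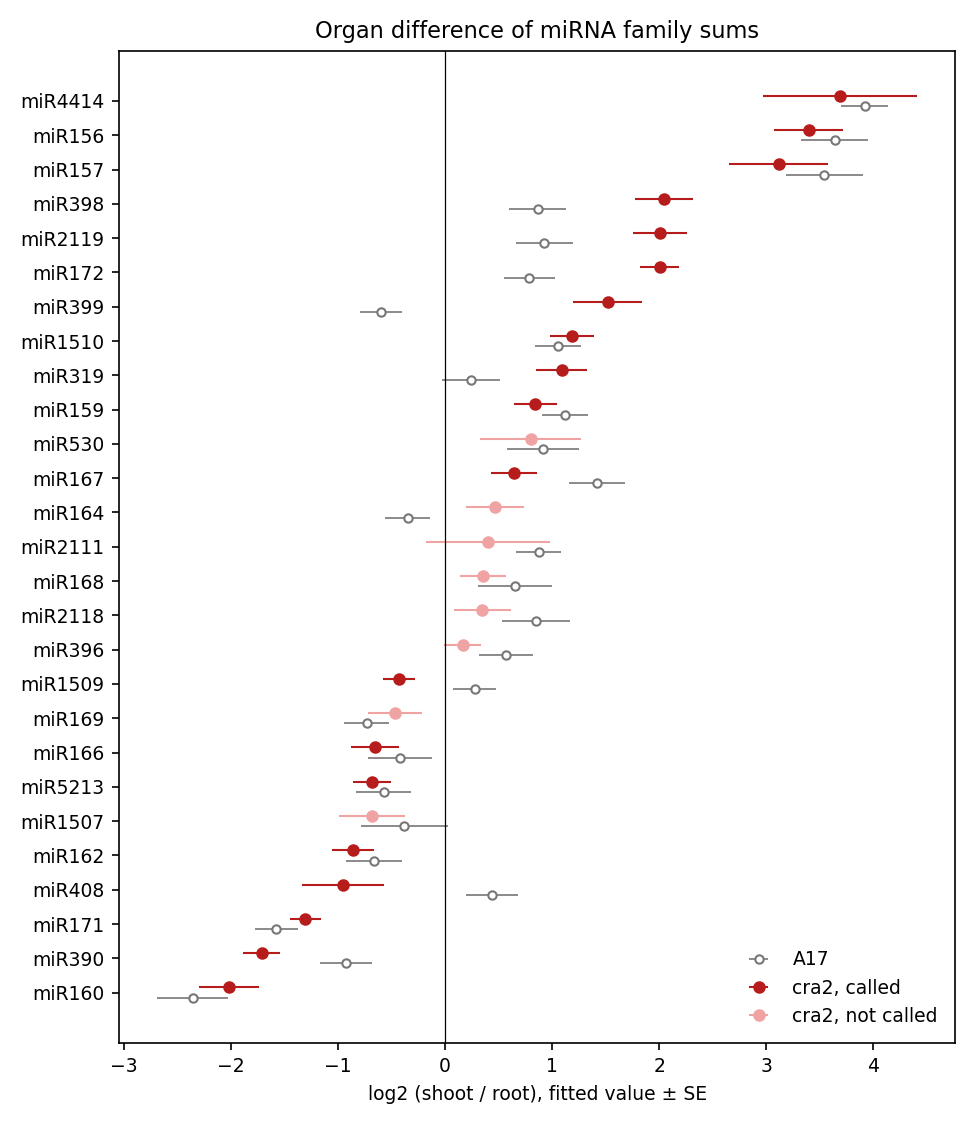
Fitted log2 ratio of shoot to root with its standard error for the 27 family sums tested, in cra2 (filled) and in A17 (open), on a linear axis. From miR160 at -2.02 to miR4414 at 3.69 in cra2, most families sat on the same side of 0 in both lines. The sign of 8 families in cra2 differed between the 4 scalings: miR164, miR167, miR168, miR169, miR396, miR1509, miR2111 and miR2118.

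The families of developmental phase change were among those with the largest excess in cra2 shoots. miR156 and miR157 repress SPL transcription factors and mark the juvenile phase, whereas miR172 represses AP2-type factors and is known to rise as plants mature. Of the 11 sequences of these families tested, 8 were higher in shoot, 1 was higher in root and 2 were not called. Their median log2 ratio was 2.19 against -0.07 over all sequences, where 27% were higher in shoot and 29.8% higher in root.

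The miR156 family sum was 9178, 13250 and 32640 CPM as lowest, median and highest of the 6 shoots, and 1018, 1557 and 1976 CPM in the roots. Every shoot lay above every root, and the highest shoot was the third deficit library. The sum was 10.5-fold higher in shoot (log2 3.39 ± 0.32 SE, adjusted p = 3.58e-07). The miR157 sum was 8.66-fold higher in shoot (log2 3.11 ± 0.46, adjusted p = 4.54e-05). This excess was carried by 1 of its mature forms. Form 1 of miR157 ranged from 5299 to 13010 CPM in shoots and from 105.9 to 622.6 in roots, which did not overlap, with a log2 ratio of 4.93 ± 0.42 (adjusted p = 2.72e-07). Form 2, which differs from it by G17A, had a log2 ratio of -0.04 ± 0.44 (adjusted p = 0.933), and its shoots and roots overlapped.

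The miR172 sum ranged from 1630 to 4306 CPM in shoots with a median of 3129, and from 587.9 to 976.2 in roots with a median of 754.8. The organs did not overlap and the sum was 4.01-fold higher in shoot (log2 2.00 ± 0.18, adjusted p = 3.04e-07). Form 1 of miR172 showed a log2 ratio of 2.14 ± 0.17 (adjusted p = 1.56e-07). For the seed variant, form 2, the log2 ratio was 0.30 ± 0.22 (adjusted p = 0.275), with overlapping organs and a negative value, -0.32, under scaling by library totals.

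The miR171 family, which represses GRAS transcription factors of the HAIRY MERISTEM and NSP2 type, was split between the organs. Form 1 had 616 counts over the 6 shoots and 0 over the 6 roots, and form 2 had 595 and 0. Against a floor of 3 counts over the roots, and with library totals scaled by TMM as for the CPM values, form 1 was at least 127-fold and form 2 at least 122-fold higher in shoot. Bounds and count ratios of other sequences were computed in the same way. In shoots, form 1 ranged from 15.5 to 79.8 CPM and form 2 from 26.4 to 87.8 CPM, so each was present in all 6. Form 3 was present in both organs, at 183 CPM as the shoot median and 24.1 CPM as the root median, with a log2 ratio of 2.68 ± 0.43 (adjusted p = 9.19e-05).

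The reverse was seen for miR171h, known in Medicago to target NSP2, a regulator of nodulation and mycorrhizal signalling. It stood at 4.29, 11.5 and 14 CPM as lowest, median and highest of the shoots and at 187.3, 259.6 and 283.7 in the roots. The organs did not overlap, and the level was 24.8-fold higher in root (log2 -4.63 ± 0.30, adjusted p = 1.69e-08). The miR171 opposite arm was 19.7-fold higher in root (log2 -4.30 ± 0.21, adjusted p = 2.21e-09), from 19.5 to 39.4 CPM in shoots and from 495.1 to 642.2 in roots. Its only pairing partner among the listed sequences, a miR171 mature sequence, was higher in shoot with a log2 ratio of 3.30 ± 0.58 (adjusted p = 0.000201). The family sum was higher in root (log2 -1.30 ± 0.15, adjusted p = 2.15e-06), but with opposite arms left out of the sum the value was 0.02. Of the 7 sequences tested, 4 were higher in shoot, 2 higher in root and 1 was not called. Of all tested sequences, 27% and 29.8% were called in these directions.

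**Figure D2:**
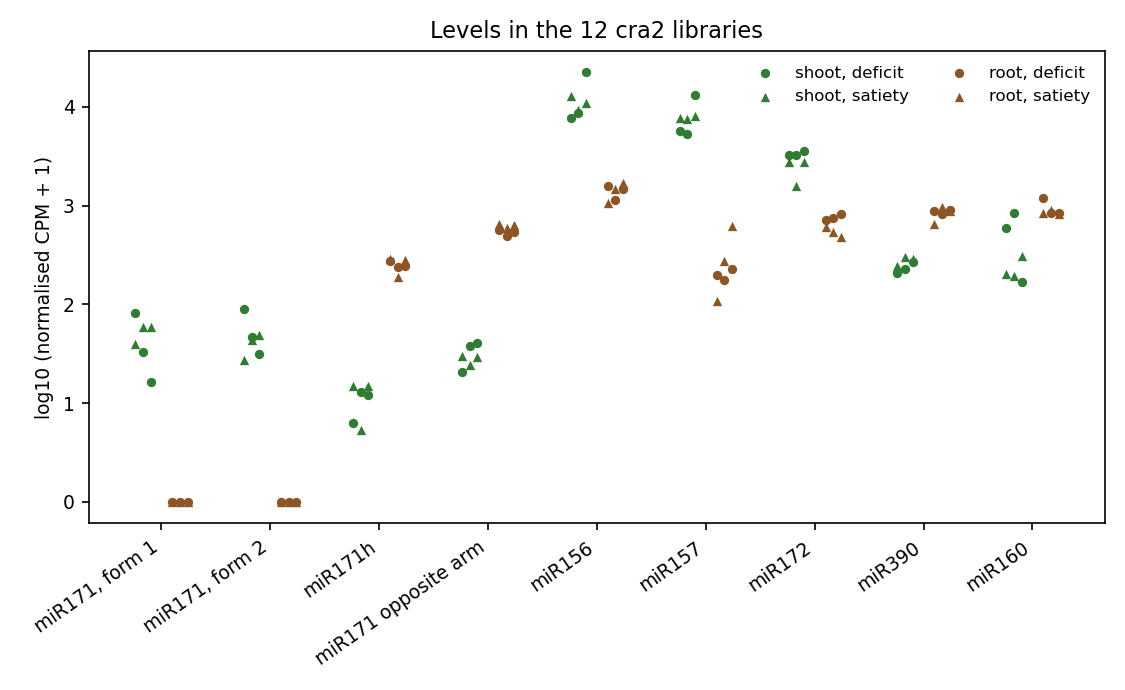
Levels of 9 sequences in each of the 12 cra2 libraries, as log10 of TMM-scaled CPM plus 1, with circles for deficit and triangles for satiety. Forms 1 and 2 of miR171 lay at 0 in every root, miR171h and the miR171 opposite arm lay higher in every root than in any shoot, and miR156, miR157 form 1 and miR172 form 1 lay higher in every shoot than in any root.

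Among the other families of organ development, miR159 represses GAMYB-type factors and its relative miR319 represses TCP factors. Across the list of miR159, miR166, miR171, miR319 and miR396, 10 of 22 tested sequences were higher in shoot, 6 higher in root and 6 not called. Their median log2 ratio was 0.46. Over all tested sequences 27% were higher in shoot, and 29.8%, a share near that of this list, were higher in root. The mature miR159 sequence took 80.7% ± 4.2 (SD, n = 6) of the counts in shoots and 71% ± 2.55 in roots (exact permutation test, two-sided, adjusted p = 0.00649). The shoot share ranged from 73.2% to 84.4% and the root share from 67.1% to 73.8%, so that only the second deficit shoot fell within the roots. In contrast, the miR159 variant had 0 counts in the shoots and 72 in the roots, at least 38.9-fold higher in root, and ranged from 4.15 to 15.2 CPM there.

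miR319 was 2.13-fold higher in shoot (log2 1.09 ± 0.24, adjusted p = 0.00117), from 5977 to 12700 CPM in shoots and from 2433 to 6541 CPM in roots, with the lowest shoot inside the root range. miR166, which represses HD-ZIP III factors of organ polarity and vascular tissue, was higher in root (log2 -0.66 ± 0.22, adjusted p = 0.0221), again with overlap. That call was lost in 7 of 20 alternative settings, with -0.15 under upper-quartile scaling (adjusted p = 0.617) and without any 1 of the 3 satiety shoots or the second satiety root. For miR396, which represses growth-regulating factors, the sum did not pass the test (log2 0.17 ± 0.17, adjusted p = 0.465; -0.47 under library totals). Its main mature forms differ by T21G and were called in opposite directions. Form 1 was higher in shoot (log2 0.73 ± 0.19, adjusted p = 0.00423) and form 2 higher in root (log2 -0.57 ± 0.17, adjusted p = 0.0107), although the organs overlapped for both.

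Families of the auxin pathway went in both directions, with miR160 and miR390 higher in cra2 roots and miR167 higher in cra2 shoots. miR160 represses auxin response factors that act as repressors, miR167 represses activating auxin response factors, miR390 triggers the trans-acting small RNAs that target ARF3-type factors, and miR164 represses NAC factors of lateral organ and root formation. Of 8 sequences tested, 5 were higher in root, 2 higher in shoot and 1 not called, with a median log2 ratio of -0.95. Over all sequences 29.8% were higher in root and 27% higher in shoot.

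The miR160 sum was 266.5, 352.1 and 1058 CPM as lowest, median and highest of the shoots and 1258, 1854 and 2804 CPM in the roots. No shoot reached the lowest root, and the sum was 4.05-fold higher in root (log2 -2.02 ± 0.28, adjusted p = 1.8e-05). Its forms had log2 ratios of -1.35 ± 0.33 for form 1 (adjusted p = 0.00295) and -3.27 ± 0.36 for form 2 (adjusted p = 2.85e-06). A miR160 opposite arm went the other way, with 158 counts in shoots against 10 in roots (log2 3.19 ± 0.35, adjusted p = 2.73e-06).

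The miR390 sequence ranged from 206.5 to 299.5 CPM in shoots and from 652.6 to 963.1 in roots. The organs did not overlap, and it was 3.34-fold higher in root (log2 -1.74 ± 0.16, adjusted p = 4.57e-07). The miR167 sum was higher in shoot (log2 0.64 ± 0.21, adjusted p = 0.0199), but -0.03 and not called under library totals. Abundant miR164 did not pass the test (log2 0.41 ± 0.24, adjusted p = 0.156). The miR164 variant with the same seed had 1 count in the shoots and 79 in the roots, a ratio of 128-fold with a 95% counting interval of 22.3 to 5120, and its fitted log2 ratio was -6.01 ± 0.65. In CPM the variant ranged from 4.46 to 15.7 in roots, and only 1 shoot held it. miR393, which represses auxin receptors, had 20 counts over the shoots and 11 over the roots and was not tested.

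Copper-responsive families diverged. miR398 represses copper/zinc superoxide dismutases and miR408 represses copper proteins such as plantacyanins, and miR2119, which in legumes shares precursors with miR398, targets alcohol dehydrogenase in bean. Of 5 sequences of this list tested, 3 were higher in shoot, 1 higher in root and 1 not called, with a median log2 ratio of 1.70. Over all tested sequences, 27% were higher in shoot and 29.8% higher in root. miR398 ranged from 1823 to 6102 CPM in shoots and from 357.3 to 1200 in roots, with no overlap and a 4.13-fold higher level in shoot (log2 2.05 ± 0.27, adjusted p = 9.03e-06). miR2119 was 159.9, 268.8 and 498.7 CPM in shoots and 46.91, 74.39 and 115.2 CPM in roots, as lowest, median and highest. Every shoot again lay above every root (log2 2.01 ± 0.25, adjusted p = 6.1e-06). miR408 went to the other side at a low level, with shoots at 4.11 to 28.3 CPM, roots at 17 to 53.5 CPM and a log2 ratio of -0.95 ± 0.38 at the edge of the threshold (adjusted p = 0.0493). That call was lost in 14 of 20 alternative settings. miR397, which represses laccases, had 1 and 4 counts.

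The phosphate family miR399, which represses the ubiquitin-conjugating enzyme PHO2 and moves from shoot to root, was scarce. Its sum was 13.2, 14.2 and 15.1 CPM as lowest, median and highest of the shoots and 0.711, 5.12 and 8.4 CPM in the roots. The shoots lay in a narrow band above all roots, 2.87-fold higher (log2 1.52 ± 0.32, adjusted p = 0.000857), on 177 counts in shoots and 38 in roots. Only 1 of its sequences could be tested, and it held 154 and 26 of these counts.

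miR2111, the shoot-to-root signal that represses the nodulation inhibitor TOO MUCH LOVE, did not pass the test in cra2. Its sum was 22.2, 50.9 and 383 CPM as lowest, median and highest of the shoots and 21.2, 67 and 102 CPM in the roots. A single shoot, the first deficit library, lay far above the other shoots, and the organs overlapped. The log2 ratio was 0.40 ± 0.58 (adjusted p = 0.603), and -0.45 without that library (adjusted p = 0.31) and -0.17 under library totals. None of the 5 sequences tested was called in either direction.

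Triggers of phased secondary small RNAs from NB-LRR disease resistance genes, mostly 22 nt long, were found on either side. Of 8 sequences of miR1507, miR1509, miR1510 and miR2118 tested, 4 were higher in root, 2 higher in shoot and 2 not called, with a median of -0.57, where 29.8% and 27% of all tested sequences were called in these directions. miR1510, for which the fragments named an opposite arm alone, was higher in shoot (log2 1.19 ± 0.21, adjusted p = 0.000165). Whether its mature strand is among the sequences of no family was not examined. miR1509 was higher in root in all 6 libraries against all 6 shoots (log2 -0.43 ± 0.15, adjusted p = 0.0244), but at 0.05 under upper-quartile scaling, and its call was lost in 14 of 20 alternative settings. For miR2118 the sum had a log2 ratio of 0.35 ± 0.27 (adjusted p = 0.29; -0.28 under library totals), whereas one of its mature sequences was higher in shoot and the other in root (log2 0.78 and -1.74, adjusted p = 0.0342 and 1.57e-05), the former call being lost in 9 of 24 alternative settings. miR5213 ranged from 8335 to 11430 CPM in shoots and from 11920 to 22340 in roots (log2 -0.68 ± 0.18, adjusted p = 0.00417).

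Of the families that act on the small RNA machinery, miR162, which represses DICER-LIKE1, was higher in root (log2 -0.86 ± 0.19, adjusted p = 0.00147). miR168, which represses ARGONAUTE1, had a log2 ratio of 0.35 ± 0.22 (adjusted p = 0.174; -0.31 under library totals). miR169, which represses NF-YA factors and restricts nodule development in Medicago through HAP2-1, did not pass as a sum (log2 -0.47 ± 0.25, adjusted p = 0.138, and 0.02 under upper-quartile scaling). Of its 7 tested sequences, 4 were higher in root and 1 higher in shoot, against 29.8% and 27% of all tested sequences. miR4414 had the largest family excess in shoot, at 665.4 to 1202 CPM against 9.45 to 412.8 CPM in roots (log2 3.69 ± 0.72, adjusted p = 0.000617). Its log2 ratio was 2.12 under deficit and 5.42 under satiety, a gap that was not tested.

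Sequences in no named family took a small share of counts but part of the widest differences. Of 104 tested, 19 were higher in shoot, 30 higher in root and 55 not called, with a median of -0.13. Over all tested sequences 27% were higher in shoot, and 29.8%, a share near that of this set, were higher in root. Among the 12 sequences per direction with the largest change and no overlap, several of no family are not shown, some with larger changes. The ones shown here were these:
shoot sequence 1: gGAAAACAtgaatgtcgggtg
shoot sequence 2: tACTTGGTgaattgttggatc
shoot sequence 3: aCAAAGACattggaaggctta
root sequence 1: tGTAGAAAaaacaaagggcaa
root sequence 2: tGGATTTCgtatttctttggta
Shoot sequence 1 had 1572 counts in shoots and 6 in roots, with 97.9 to 184 CPM in shoots and at most 2.3 CPM in roots (log2 7.24 ± 0.45, adjusted p = 1.69e-08). Root sequence 1 had 250 counts in roots and 0 in shoots, at least 135-fold higher in root, and its root levels ran from 20.4 to 43 CPM. Root sequence 2, of 22 nt, ranged from 401.8 to 694.1 CPM in roots and from 15.5 to 55.1 CPM in shoots (log2 -3.82 ± 0.28, adjusted p = 6.37e-08). No count in any cra2 root was found for 27 sequences, no count in any cra2 shoot for 12, and 98 had none in either organ.

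Length classes differed between the organs as shares of each library. Sequences of 20 nt made up 1.33% ± 0.368 (SD, n = 6) of shoot counts and 0.543% ± 0.187 of root counts, with no overlap (exact permutation test, two-sided, adjusted p = 0.00649). This class holds the abundant miR156 mature sequence, at 7617 to 22390 CPM in shoots and 1058 to 1674 CPM in roots. The 20-nt share without it was not computed, so the difference cannot be told apart from that of miR156. Sequences of 22 nt made up 2.79% ± 0.643 in shoots and 5.26% ± 0.444 in roots, again with no overlap (exact permutation test, adjusted p = 0.00649). The 21-nt share was 95.8% in shoots and 94.1% in roots (exact permutation test, adjusted p = 0.00649), but with miR159 left out of the totals the difference became -1.48 percentage points. The 24-nt share, typical of heterochromatic small RNAs, was 0.0617% and 0.0542% (exact permutation test, adjusted p = 0.829). By sequence, 5 of 6 tested 20-nt sequences were higher in shoot and none higher in root, while 8 of 22 tested 22-nt sequences were higher in root and 5 higher in shoot, near the 29.8% and 27% of all sequences. Of 18 tested 24-nt sequences, 16 were not called, where 56.7% of all tested sequences were called.

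The balance of both strands of a duplex was compared as a ratio within each library, which is free of scaling between libraries. Of 47 duplexes with counts, 15 had at least 10 counts of each arm in every cra2 library, and the ratio differed between organs for 7 of them. At a minimum of 50 counts 4 were called, and 4 also without cra2 root deficit replicate 2, root satiety replicate 2 or shoot deficit replicate 3. The mature arm was relatively more abundant in root in 4 and in shoot in 3. These duplexes are not all separate. The called duplexes of no family share a mature strand, have opposite arms that differ only in length, and all count among those with the mature arm higher in shoot. For miR156, log2 of mature to opposite arm was 1.88 ± 0.249 (SD, n = 6) in shoots and 4.68 ± 0.798 in roots, a difference of -2.80 (exact permutation test, two-sided, adjusted p = 0.00812). For miR157 the difference had the other sign, with 5.67 ± 0.404 in shoots and 3.48 ± 0.718 in roots (difference 2.19, exact permutation test, adjusted p = 0.00812). One duplex each of miR396 and miR166 had a lower ratio in shoots, by -1.35 and -1.20 (exact permutation test, adjusted p = 0.00812 for each). In each of these families another duplex with the same mature strand was tested and not called. Its difference was 0.313 for miR396 and -0.137 for miR166 (exact permutation test, adjusted p = 0.0528 and 0.473). The miR398 ratio differed by -1.08 (exact permutation test, adjusted p = 0.0325), with overlapping libraries. Identical mature sequences can come from several precursors, so a ratio can mix loci.

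**Figure D3:**
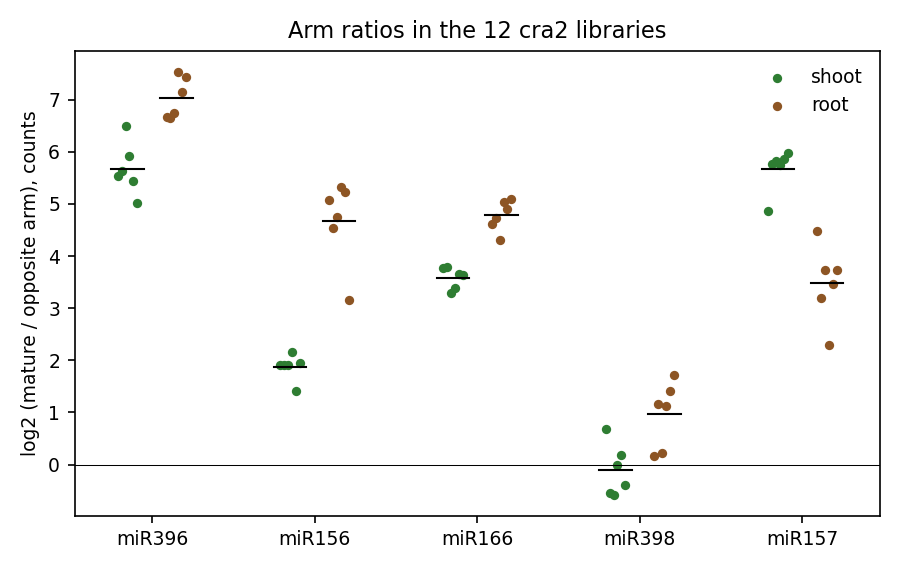
Log2 ratio of mature-arm to opposite-arm counts in each cra2 library for the 5 named duplexes called, with a bar at the mean of 6 libraries. Roots lay above all shoots for miR156, one miR396 duplex and one miR166 duplex, shoots lay above all roots for miR157, and miR398 overlapped.

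The same organ comparison in A17 shows which of these differences hold with CRA2 present, and the 12 A17 libraries share none with cra2. Of 201 sequences tested in A17, 112 were called (55.7%), 56 higher in shoot (27.9%) and 56 higher in root (27.9%). Tested in both lines were 176, and 152 of them (86.4%) had the same sign. Called in both lines in the same direction were 82, which is 81.2% of the cra2 calls and 82% of the A17 calls, and none was called in opposite directions. The shoot-only miR171 forms, miR171h, miR156, miR157 form 1, miR160 form 2 and miR164 variant were all among those called the same way in A17, with A17 log2 ratios of -3.63 for miR171h and 3.34 for miR156. A further 19 sequences were called in cra2 alone and 18 in A17 alone, and the direct test of the difference was passed by 5 and 1 of these.

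That test, of the organ difference in cra2 minus that in A17 over all 24 libraries, called 17 of 200 sequences (8.5%), 12 positive (6%) and 5 negative (2.5%). Its count moved with the scaling, to 22 (12 positive, 10 negative) under RLE scaling, 14 (all positive) under library totals and 31 (7 positive, 24 negative) under upper-quartile scaling, and it fell to 10 without the filter on low counts. Without cra2 shoot deficit replicate 3 it was 31, and without replicate 2 of that group 26. By family, 4 of 27 passed (14.8%), each with a positive difference: miR399, miR172, miR398 and miR319. On the scale of all 24 libraries, cra2 roots of these families lay lower than A17 roots, as the following values show.

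miR399 was at 15.8 to 57.2 CPM in A17 roots and 10.5 to 36.8 CPM in A17 shoots, against 0.658 to 8.4 CPM in cra2 roots and 12 to 14.6 CPM in cra2 shoots. Its log2 ratio of shoot to root was -0.60 ± 0.20 in A17 and 1.52 ± 0.32 in cra2, and the difference was 2.28 ± 0.36 (edgeR, adjusted p = 5.44e-05). The cra2 roots lay below all libraries of the other 3 groups. The shoots of both lines overlapped under deficit. Under satiety the cra2 shoots, at 12 to 13.9 CPM, lay below the A17 shoots, at 26.9 to 36.8 CPM. The difference was called under all 4 scalings. It rests on few counts in cra2 roots, 1 to 11 per library against 40 to 114 in A17 roots.

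miR172 was at 1338 to 2268 CPM in A17 roots and 570.9 to 867.5 CPM in cra2 roots. The shoots ranged from 2075 to 3944 CPM in A17 and from 1550 to 3978 CPM in cra2. Under satiety the cra2 shoots, at 1550 to 2956 CPM, lay below the A17 shoots, at 3072 to 3944 CPM. Under deficit they lay above, at 3081 to 3978 CPM against 2075 to 2890 CPM. The difference of log2 ratios was 1.31 ± 0.23 (edgeR, adjusted p = 0.000178), called under all 4 scalings. Both mature forms contributed: form 1 differed by 1.14 ± 0.24 (adjusted p = 0.00263), and form 2, which was higher in A17 root (log2 -1.24), by 1.58 ± 0.29 (adjusted p = 0.000796).

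miR398 was at 1488 to 2670 CPM in A17 roots and 324.7 to 1111 CPM in cra2 roots, with a difference of 1.28 ± 0.35 (adjusted p = 0.0216). Its opposite arm differed by 1.59 ± 0.30 (adjusted p = 0.000822). miR319 was at 4286 to 10600 CPM in A17 roots and 2431 to 5772 CPM in cra2 roots, with a difference of 0.95 ± 0.25 (adjusted p = 0.0179). Both calls were lost under upper-quartile scaling (adjusted p = 0.0605 for miR398 and 0.0825 for miR319) and without cra2 shoot satiety replicate 3 (0.0545 for each). The miR398 call was also lost without cra2 shoot deficit replicate 1 (0.0523), A17 shoot deficit replicate 2 (0.0597) or A17 shoot satiety replicate 1 (0.0541), and the miR319 call without the filter (0.0701). miR2119 and miR408 had differences of 1.18 ± 0.42 and -1.30 ± 0.47 that did not pass (adjusted p = 0.0826 and 0.0838). For miR2111 the difference was -0.36 ± 0.61 (adjusted p = 0.822). In A17 the miR2111 sum was called higher in shoot, with overlapping organs (log2 0.88 ± 0.21, edgeR, adjusted p = 0.00153). Its level was 293.8 to 1266 CPM in A17 shoots and 19.6 to 371 CPM in cra2 shoots. Within each regime these shoots did not overlap, at 940 to 1266 against 29.4 to 371 CPM under deficit. Under satiety they were at 293.8 to 409 CPM in A17 and 19.6 to 64 CPM in cra2. In roots the miR2111 level was 228.6 to 609.8 CPM in A17 and 19.27 to 94.12 CPM in cra2, without overlap.

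**Figure D4:**
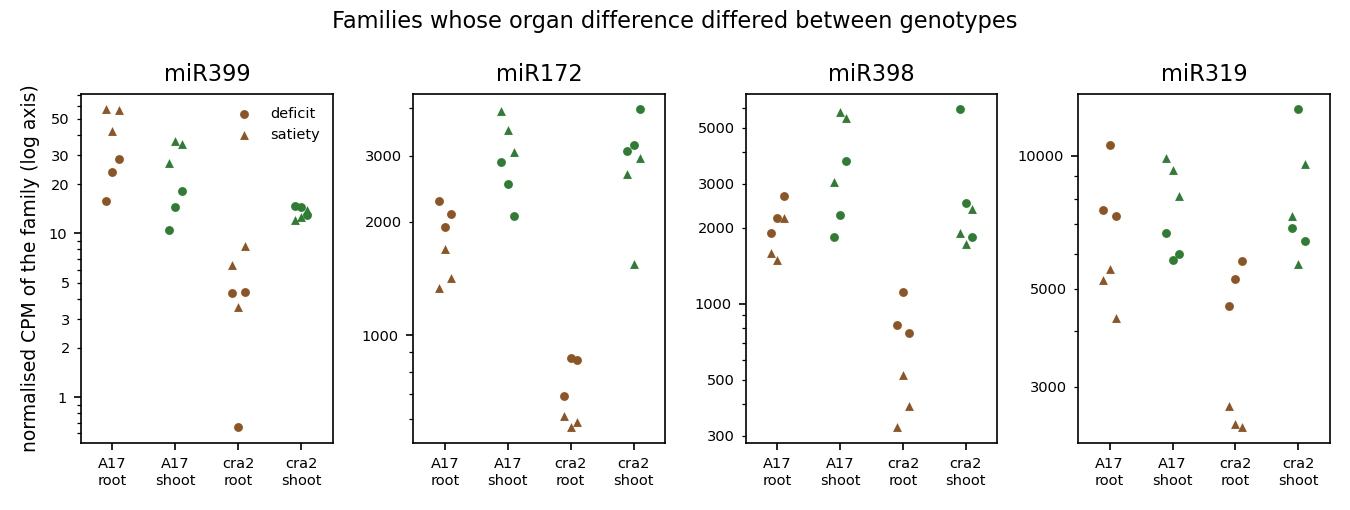
TMM-scaled CPM of 4 families in all 24 libraries on log axes, with circles for deficit and triangles for satiety. Over both regimes, roots of cra2 lay below A17 roots in every library for miR399, miR172 and miR398. For miR319 the roots overlapped, but within each regime every cra2 root lay below every A17 root. The shoots of both lines overlapped over both regimes, but under satiety cra2 shoots lay lower without overlap for miR399, miR172 and miR398.

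Shoot sequences 2 and 3 had the smallest p in the test of the difference between the lines. Shoot sequence 2 ranged from 445.2 to 727.5 CPM in A17 roots and from 35.6 to 160.7 CPM in cra2 roots, with shoots at 1624 to 5688 and 1718 to 4656 CPM. Its log2 ratio was 2.55 in A17 and 5.02 in cra2 (difference 2.53 ± 0.33, adjusted p = 6.32e-06). It pairs as a duplex with a listed 21-nt sequence that differed in the same direction (1.93 ± 0.58, adjusted p = 0.0346). Shoot sequence 3 ranged from 54.2 to 126.2 CPM in A17 roots and from 3 to 15.5 CPM in cra2 roots (difference 2.86 ± 0.37, adjusted p = 6.32e-06), and in A17 the organ difference was not called (log2 0.48, adjusted p = 0.0673). Among negative differences, miR390 was higher in root by more in cra2 than in A17 (log2 -1.74 and -0.99, difference -0.71 ± 0.19, adjusted p = 0.0169). With the family sums in the table the same miRNA had -0.68 ± 0.22 and did not pass (adjusted p = 0.0665). The call for the sequence was lost in 13 of 31 alternative settings.

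**Figure D5:**
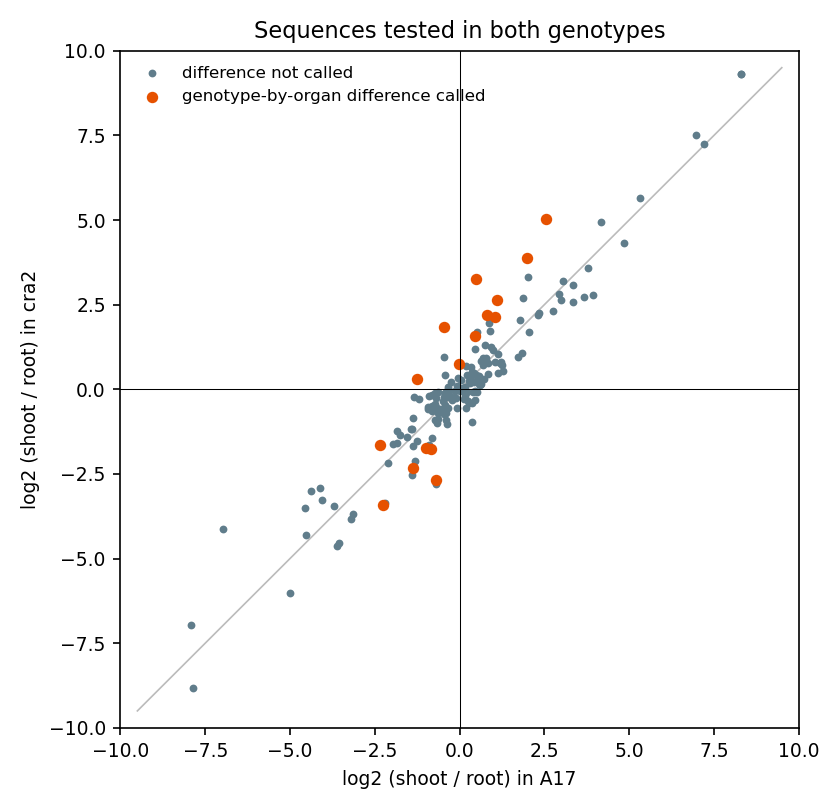
Fitted log2 ratio of shoot to root in cra2 against that in A17 for the 176 sequences tested in both lines, with a line of equality. Most points, 152 of 176, share a sign, and the larger coloured points are those whose difference between the lines was called.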

How the data were processed

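Small RNA was sequenced in 24 libraries, 3 in each of 8 groups of genotype, organ and nitrogen regime. The authors deposited raw counts per sequence, 1 table per library, with 427 sequences in each. The submitters' processing notes name cutadapt, and no label or header gives the mapping or how the sequences were chosen. Replicate numbers come from the labels. Counts were tested with edgeR 4.0.16 (robust quasi-likelihood fit, TMM, filterByExpr with a minimum count of 10, Benjamini-Hochberg adjustment, threshold 0.05), in R 4.3.3. In cra2 the model held nitrogen and organ, and the genotype-by-organ difference used 8 group means. DESeq2 1.42.0 was an alternative. Each SE is the absolute log2 ratio divided by the square root of F. Shares and arm ratios were tested by exact permutation over 924 arrangements, for which the smallest p is 0.00216. In simulated counts, 40 of 40 changed sequences were recovered in the organ comparison. All of them had the same size of change, were not scarce and had the same fixed spread. The simulation therefore does not show how well smaller changes, or changes in libraries as variable as these, are recovered. Replicate libraries of a group differed beyond counting noise, since chi-square divided by its degrees of freedom was 26.4 to 476 in the 12 cra2 pairs. Intervals and floors of 3 counts cover counting error only.

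Families were named from textbook knowledge by short sequence fragments, since no reference of mature miRNAs was used here. The plan had been to leave sequences unnamed in that case. The fragments were written after the sequences were seen and extended once before any fold change was computed. Opposite arms were assigned by fragments or by pairing with a 2-nt overhang. Sequences named in the text were the 12 per direction with the largest change and no overlap, the 5 most abundant per organ, up to 6 per direction for the genotype difference, up to 5 per organ without counts in the other, and the fixed families. Named sequences of no family with a negative genotype difference are not reported here. Other members of these families were named after their values were seen. The members and lists were chosen with earlier results of these data known.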

Additional observations from a re-analysis of the deposited data

Results flagged for a closer look

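In 14 of 66 sets of 6 cra2 libraries, 1 library lay far from the other 5. The rule flags about 1 in 20 sets of independent values from the same normal distribution. The sets here share libraries and hold both nitrogen regimes, so that rate cannot serve as their chance level. The third deficit shoot was the highest for miR156 (32640 CPM), miR157 (16360), miR162 (4324), miR396 (107400) and miR1507 (15270 against 4619 to 6493 in the others). The first deficit shoot was the highest for miR398 (6102) and for miR2111 (383.4 against 22.18 to 67.31). The second deficit shoot had the highest 24-nt share, 0.1344%. Among roots, the first satiety library had the highest miR1509 (2720) and 22-nt share (6.12%) and the lowest miR390 (605.9), the third satiety library the highest miR157 (2803) and miR408 (53.54), and the third deficit library the highest miR4414 (412.8 against 9.449 to 155.4).

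The organ difference itself differed between cra2 and A17 by the direct test for the sums of miR399 (2.28), miR172 (1.31), miR398 (1.28) and miR319 (0.954), on the log2 scale. Among sequences, it did so for shoot sequence 3 (2.86), shoot sequence 2 (2.53), miR399 (2.44), miR398 opposite arm (1.59), miR172 form 2 (1.58) and form 1 (1.14), and with a negative sign for miR390 (-0.706).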

How the results depend on the processing

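The count of 101 sequences called between the organs of cra2 stayed between 86 and 112 in all alternatives, and from 90 to 102 when 1 library was left out, with no call turned. The split of higher to lower moved from 48 and 53 to 35 and 76 under library totals. The 19 families were 16 to 19 when 1 library was left out, and the split of 11 to 8 became 7 to 11 under library totals, 16 to 3 under upper-quartile scaling, 11 to 4 without the filter and 11 to 5 at 10 CPM in 3 libraries. Reversed signs, with the cause not tested, were these. Under library totals, family sums became -0.227 for miR164, -0.026 for miR167, -0.312 for miR168, -0.169 for miR2111, -0.279 for miR2118 and -0.471 for miR396, miR172 form 2 became -0.318, and shoot sequence 3 in A17 became -0.397. Under upper-quartile scaling miR1509 became 0.0499 and miR169 0.0191. miR2111 became -0.00661 with a replicate block and -0.454 without cra2 shoot deficit replicate 1 (up to 0.775 without another library), and miR171 became 0.0169 with mature arms only, which drops the abundant opposite arm.

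The 17 genotype-by-organ calls became 31 under upper-quartile scaling, 29 with DESeq2 (12 positive, 17 negative), 10 without the filter and 5 with the replicate block, and ranged from 13 to 31 when 1 library was left out. The 4 family calls became 9 with DESeq2 (5 positive, 4 negative), 6 with RLE scaling (4 positive, 2 negative), 6 under upper-quartile scaling (2 positive, 4 negative) and 2 with the block, and ranged from 3 to 8, with 8 without A17 shoot deficit replicate 1 or cra2 shoot deficit replicate 1, and 7 without replicate 3 of either group or cra2 shoot satiety replicate 1. In A17 the split of 56 to 56 became 26 to 116 under library totals and 67 to 37 at 10 CPM. Under deficit 59 instead of 85 were called from its 6 libraries alone. The 7 arm ratios became 4 at a minimum of 50 counts, and 4 to 9 when 1 library was left out, with 4 without cra2 root deficit replicate 2, root satiety replicate 2 or shoot deficit replicate 3.

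Replicate numbers did not meet the rule for pairing, a correlation over 0.1 in every pair: residuals of same-numbered libraries correlated at -9.95e-05 to 0.284, over 0.1 in 3 of 6 pairs, and 4 of 6 correlated best with their own number. With the block, 95 sequences were called in cra2. Share differences with the block kept their size, 0.79 for 20 nt, 1.67 for 21 nt and -2.47 for 22 nt (adjusted p = 0.0625 from exact sign flips), 9.68 for miR159 and 0.768 for named families (adjusted p = 0.075), where 64 flips allow no unadjusted p under 0.0312. Without miR159 the share differences were -1.48 for 21 nt, 0.12 for 24 nt and -1.17 for named families. When 1 library was left out they ranged from 0.693 to 0.864 for 20 nt, 1.5 to 1.94 for 21 nt, -2.63 to -2.3 for 22 nt, -0.00705 to 0.0128 for 24 nt, 8.9 to 11.2 for miR159 and 0.66 to 0.968 for named families. Shallower roots limit what can be seen there: 3 counts equal 2.58 to 3.9 CPM in a cra2 root and 0.821 to 2.01 CPM in a cra2 shoot.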
